A study of Mus musculus with 11 samples.

Results

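Apoptosis genes encode the proteins that decide whether a cell dies by regulated means, and 39 of them were read here in histone ChIP-seq of mouse stomach glands, out of 21887 protein-coding genes in the gene table. The members were listed by name as Bcl2 family, caspase, death receptor and inhibitor genes, and all 39 were found in the table. A gene was called in a library when a deposited peak lay within 1 kb of either end of the gene. Peaks elsewhere in the gene body or in the 20 kb on each side, and not within 1 kb of an end of any protein-coding gene, were counted separately as distal peaks.

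H3K27ac, an acetylation found at active promoters and enhancers, was profiled in 4 groups of 2 libraries, and H3K4me3, a methylation found at promoters, in 3 libraries of 1 per group. The glands were wild type, Atp4bCre; Rosa26NICD (called NICD), Atp4bCre; Rosa26NICD; Arid1aflox/+ (called 1-allele) or Atp4bCre; Rosa26NICD; Arid1aflox/flox (called 2-allele), so that every group but wild type carried Cre and the intracellular, active part of Notch. Atp4bCre is driven by the promoter of a proton pump gene of parietal cells, while glands hold many other cell types, and Arid1a encodes a subunit of the SWI/SNF chromatin remodelling complex. The Arid1a-floxed H3K4me3 library has 1 floxed allele by its title and 2 by its genotype, so its allele number is open. Ages are not given in the sources used here, fixed pellets were pooled, and the sources used here do not say if replicates stem from separate animals, so a spread between replicates may be technical.

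Intrinsic apoptosis is set by the Bcl2 family. Pro-survival members such as Bcl2 and Mcl1 hold back the killers Bax and Bak1, which open the outer mitochondrial membrane, and BH3-only members such as Bbc3 (PUMA) and Bcl2l11 (BIM) relieve that block. Cytochrome c then joins Apaf1 in the apoptosome and starts Casp9, while death receptors such as Fas start Casp8 through Fadd, with Cflar as a decoy. Inhibitor of apoptosis proteins (the Birc genes and Xiap) restrain caspases or their death-receptor complexes. In the gastric epithelium, cells are continually renewed and older cells are shed or die.

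The H3K27ac lists differed in length, from 5165 and 7602 peaks in the 1-allele libraries to 20590 and 18360 in wild type and 41405 and 25442 in NICD, with 15362 and 14373 in the 2-allele group. Tags after duplicate removal ran from 7.96 M to 18.26 M in the 6 H3K27ac libraries that state them, and NICD replicate 2 stood apart with the fewest tags and a redundant rate of 0.52. The 2-allele lists hold positions only, so their depth and calling are not given in the sources used here. The start of Epcam, an epithelial marker, had a peak in all 11 libraries, and no other epithelial marker did. Cdh1, Krt8, Krt18 and Cldn7 had none in either 1-allele library, and Cldn7 none in wild type. Krt19 had one in all 8 H3K27ac libraries and none in Arid1a-floxed H3K4me3. The start of Atp4b, a parietal marker, had a peak in both wild-type H3K27ac libraries and in 1-allele replicate 1. Atp4b also had one in NICD and Arid1a-floxed H3K4me3, and none in the NICD and 2-allele H3K27ac lists. Of 8 parietal markers, 5 and 5 had an H3K27ac peak at their start in wild type, 2 and 2 in NICD, 1 and 1 in the 1-allele and 2 and 1 in the 2-allele libraries, with Atp4a and Kcne2 at 0 in every list. H3K4me3 ran the other way between wild type and NICD. It was called at Hrh2, Clic6 and Vegfb in both, and at Atp4b, Kcnj16 and Slc26a9 in NICD alone of these, in a longer list. Of 10 blood markers, 0 and 0 had one in wild type, 1 and 2 in NICD, 0 and 0 in the 1-allele and 2 and 0 in the 2-allele libraries.

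The promoters that the results turn on are shown here, from 250 bases before to 50 bases after the start, as RefSeq gives them on GRCm38.p6. Capitals mark 3 motifs found on either strand: GTGGGAA (RBPJ), CACGTG (E-box) and GGGCGG (GC box, CCGCCC on the other strand). No marked match overlaps another, and TGANTCA (AP-1) and CCAAT were also searched and occur in none of these promoters. The Bax promoter is shown because H3K27ac peaks lay within 1 kb of its start in each NICD library and in neither wild-type list. The window shown lies at chr7:45466849-45467148 on the minus strand. No H3K27ac peak overlaps it, since the NICD peaks, at chr7:45466240-45466828 and chr7:45466426-45466748, and those of the 2-allele lists lie just downstream.
Bax: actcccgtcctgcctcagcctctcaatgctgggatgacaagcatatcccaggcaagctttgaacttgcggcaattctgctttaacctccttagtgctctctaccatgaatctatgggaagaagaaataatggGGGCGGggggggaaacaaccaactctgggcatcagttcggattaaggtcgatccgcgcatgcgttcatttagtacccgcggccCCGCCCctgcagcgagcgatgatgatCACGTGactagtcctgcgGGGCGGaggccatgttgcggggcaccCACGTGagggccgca
The next 4 belong to genes called in all 8 H3K27ac libraries, by the strength of their peaks, with Casp8 passed over because its peaks lie away from its tabulated start and weaker genes left out for brevity. They are Cflar at chr1:58711241-58711540 and Ripk1 at chr13:34002113-34002412 on the plus strand, and Apaf1 at chr10:91082694-91082993 and Birc2 at chr9:7837008-7837307 on the minus strand.
Cflar: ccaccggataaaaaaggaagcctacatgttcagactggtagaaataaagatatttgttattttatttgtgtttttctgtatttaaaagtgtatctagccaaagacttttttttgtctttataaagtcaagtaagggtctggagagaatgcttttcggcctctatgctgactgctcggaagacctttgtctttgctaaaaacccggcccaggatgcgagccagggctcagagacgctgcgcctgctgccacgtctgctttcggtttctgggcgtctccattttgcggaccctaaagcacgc
Ripk1: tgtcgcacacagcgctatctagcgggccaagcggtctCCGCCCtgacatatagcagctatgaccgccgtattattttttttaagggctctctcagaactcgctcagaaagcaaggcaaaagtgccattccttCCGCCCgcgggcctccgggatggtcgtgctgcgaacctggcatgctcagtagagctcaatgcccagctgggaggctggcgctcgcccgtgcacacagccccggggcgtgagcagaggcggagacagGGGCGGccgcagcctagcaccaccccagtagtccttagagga
Apaf1: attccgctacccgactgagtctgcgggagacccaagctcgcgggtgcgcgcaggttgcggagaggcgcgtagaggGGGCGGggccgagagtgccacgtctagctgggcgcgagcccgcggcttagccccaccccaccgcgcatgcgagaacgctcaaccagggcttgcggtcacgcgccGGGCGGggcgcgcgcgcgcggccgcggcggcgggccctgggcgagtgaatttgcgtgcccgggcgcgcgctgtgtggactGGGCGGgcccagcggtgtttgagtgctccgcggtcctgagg
Birc2: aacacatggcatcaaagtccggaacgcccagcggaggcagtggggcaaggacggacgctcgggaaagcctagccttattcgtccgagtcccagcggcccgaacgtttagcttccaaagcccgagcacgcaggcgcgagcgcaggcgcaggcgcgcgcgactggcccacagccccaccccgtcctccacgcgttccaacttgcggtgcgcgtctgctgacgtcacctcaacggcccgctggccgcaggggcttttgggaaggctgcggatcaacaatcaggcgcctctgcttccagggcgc
Hrk, at chr5:118169514-118169813 on the plus strand, was added after its values were seen, as a promoter with H3K4me3 in NICD and no H3K27ac peak at its start or ends.
Hrk: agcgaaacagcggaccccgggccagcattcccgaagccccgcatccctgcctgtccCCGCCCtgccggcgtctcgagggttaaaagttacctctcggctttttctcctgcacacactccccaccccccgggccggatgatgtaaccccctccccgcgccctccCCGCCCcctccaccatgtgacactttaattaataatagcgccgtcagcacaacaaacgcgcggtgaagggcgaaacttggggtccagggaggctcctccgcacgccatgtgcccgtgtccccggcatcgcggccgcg
The Bax window holds the E-box letters in 2 places, and the Cflar and Birc2 windows shown hold none of the 3 motifs. Motifs were read at the first listed start of each gene, and a second listed start of Birc2, with a window at chr9:7836757-7837056, holds the GC box letters in 2 places. Both 1-allele H3K27ac peaks of Birc2, at chr9:7836590-7836862 and chr9:7836591-7836947, overlap that second window and not the printed one. The wild-type replicate 1 peaks of Birc2 also miss the printed window. So do all wild-type and 1-allele H3K27ac peaks of Apaf1 and the 1-allele replicate 2 peak of Ripk1 for their printed windows. Over the 35 members with a RefSeq promoter, 24 (68.6%) held the GC box letters against 46.3% of 17457 other promoters, and 4 (11.4%) held the E-box letters against 7.89%. The RBPJ letters, of the DNA-binding partner of NICD, were in the promoters of Bad, Bcl2l14 and Bmf, 8.57% against 6.08% of the others. The AP-1 letters were in 1 member promoter, that of Fas (2.86% against 7.09%), and CCAAT in 8 (22.9% against 39.1%). The median member promoter held 21 CpG dinucleotides and the median other promoter 13. A match is a description of the letters only. No promoter sequence is shown for Bik, Pmaip1, Tradd and Tnfrsf10b.

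Apoptosis genes were called more often than other genes in every H3K27ac library. Of the 39, 30 and 29 were called in wild type, 34 and 30 in NICD, 9 and 14 in the 1-allele group, and 27 and 28 in the 2-allele group. The share of the 21848 other genes called was 43.0% and 40.8%, 53.0% and 47.2%, 16.1% and 25.8%, and 42.5% and 41.1% in the same order, and the members' shares were 76.9% and 74.4%, 87.2% and 76.9%, 23.1% and 35.9%, and 69.2% and 71.8%. As group means the members numbered 29.5 ± 0.71, 32 ± 2.8, 11.5 ± 3.5 and 27.5 ± 0.71 (SD, n = 2 each). The 1-allele libraries were lowest and did not overlap the other 3 groups, while NICD replicate 2 and wild-type replicate 1 held the same number. No test was run, since an exact permutation test of 2 libraries against 2 cannot reach 0.05 and calls in separately called lists depend on list length. In these bulk glands, fewer cells of a type and less mark per cell cannot be told apart.

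**Figure D1:**
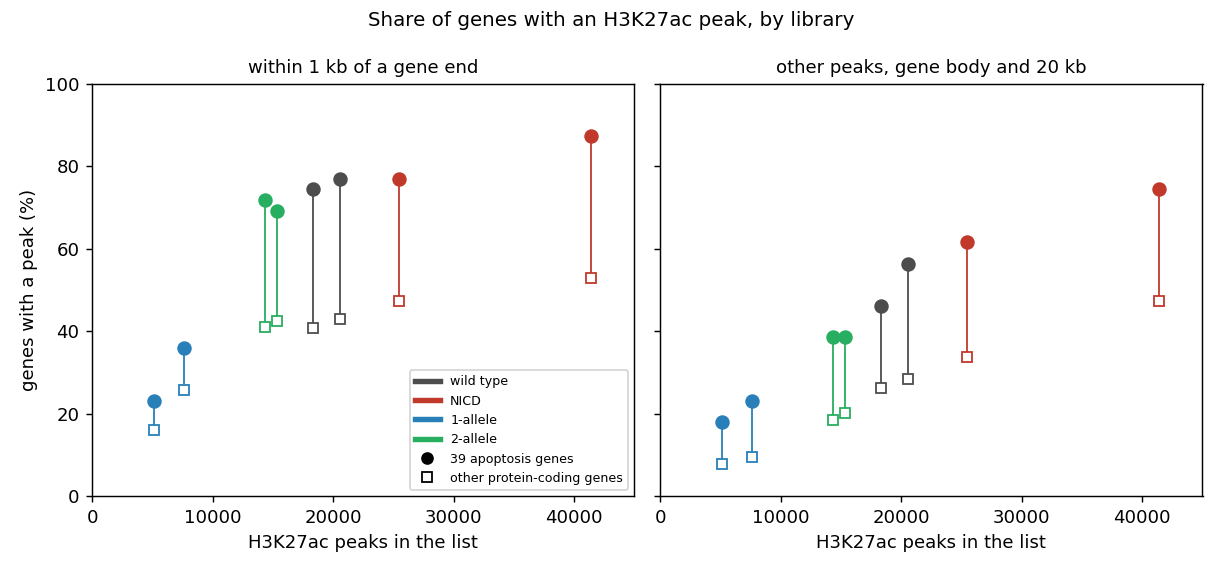
Share of genes with an H3K27ac peak (y axis, %) against the number of peaks in the list (x axis) for each of the 8 libraries, with filled circles for the 39 apoptosis genes and open squares for the 21848 other protein-coding genes. The circles lie above the squares in every library, and the lowest pair of each panel belongs to the 1-allele library with 5165 peaks.

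The plot of shares by list length shows that members and other genes were called least in the 2 shortest lists. With each list cut to its strongest 5165 peaks, the members called were 8 and 14 in wild type, 17 and 9 in NICD, 9 and 10 in the 1-allele group and 12 and 14 in the 2-allele group. At this length the members' counts in the 1-allele libraries lay inside the range of the wild-type and NICD libraries. The members' shares were 20.5% and 35.9%, 43.6% and 23.1%, 23.1% and 25.6%, and 30.8% and 35.9%, and those of other genes 19% and 18.9%, 21.1% and 20.3%, 16.1% and 18.8%, and 21.6% and 21.1%. In wild-type replicate 1 and NICD replicate 2 the members were thus near the share of other genes. For other genes the 1-allele shares stayed below those of every other library, 1-allele replicate 2 by a small margin. For the 2-allele lists the order of rows in the file stood in for strength. Of their rows 1 to 1000, 95.6% and 94.8% overlapped a peak of 1-allele replicate 2, against 18.3% and 20.7% of rows 10001 to 11000.

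**Figure D2:**
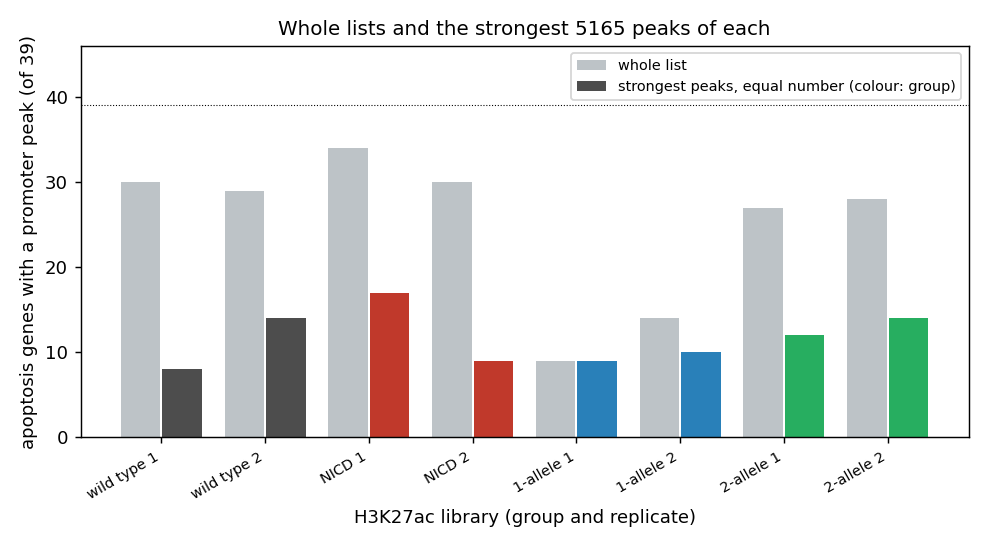
Number of the 39 apoptosis genes with an H3K27ac peak within 1 kb of a gene end (y axis) in the whole list of each library (grey bars) and in its strongest 5165 peaks (coloured bars, by group), the dotted line marking all 39. The grey bars range from 9 to 34 and the coloured bars from 8 to 17, with the 1-allele bars at 9 and 10.

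A core of 8 members (20.5%, against 13.4% of other genes) was called in all 8 H3K27ac libraries: Apaf1, Bcl2, Birc2, Birc6, Casp8, Cflar, Pmaip1 and Ripk1. Cflar, the caspase-8 decoy (chr1:58711311-58758884), had the strongest peaks by mean percentile, 92.7, where 100 is the strongest peak of a library's own list. Its peaks stood at percentiles 97 and 95.5 in wild type, 97.8 and 95.5 in NICD, 86.9 and 79 in the 1-allele group and 94.3 and 95.3 in the 2-allele group. All 8 values are thus in the upper part of their lists, although a percentile in a short list is not on the scale of one in a long list.

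Ripk1, a kinase of death receptor complexes (chr13:34002225-34035170), followed with percentiles of 84.5 and 83.4 in wild type, 97.3 and 98 in NICD, 92 and 87.7 in the 1-allele group and 87.4 and 95.4 in the 2-allele group. Apaf1, the scaffold of the apoptosome (chr10:90989311-91082743), stood at 77.9 and 89.9, 96.8 and 98.4, 75.1 and 74.6, and 94.1 and 88.1 in that order of groups. In both genes the NICD libraries, which have the longest lists, held the highest values. The peaks of Apaf1 also lay at the end of Ikbip, and those of Ripk1 at Serpinb6a, so they cannot be given to the member alone. The other 5 had lower mean percentiles, 82.9 for Casp8, 78 for Birc2, 74.4 for Birc6, 72 for Bcl2 and 58.1 for Pmaip1 (NOXA, a BH3-only protein).

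**Figure D3:**
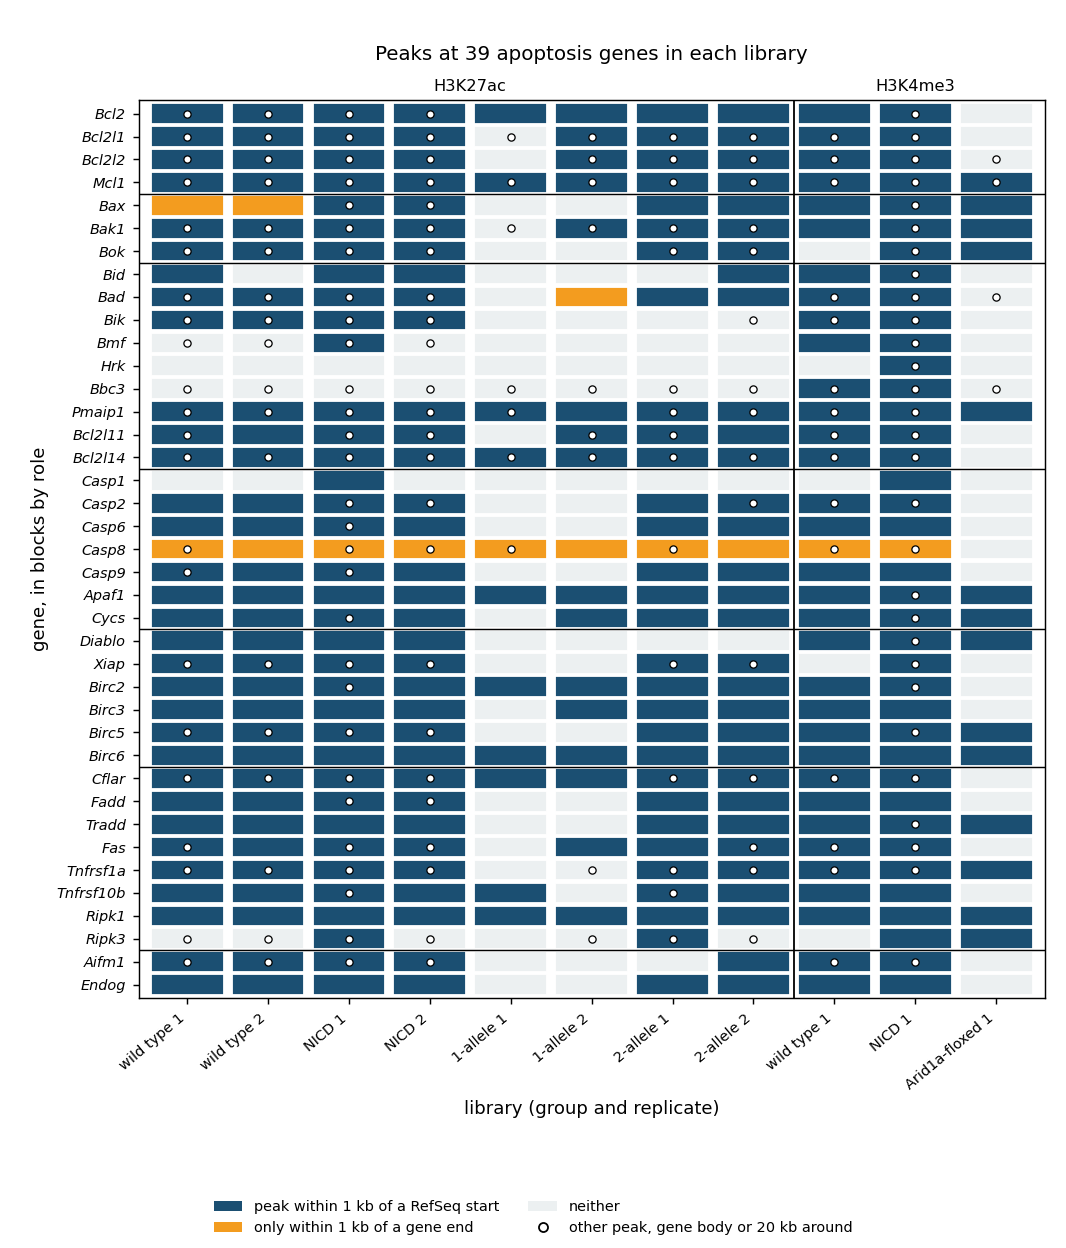
H3K27ac (left 8 columns) and H3K4me3 (right 3 columns) peaks at the 39 apoptosis genes (rows, in blocks by role) in each library (columns). Blue cells have a peak within 1 kb of a RefSeq start (for Bik, Pmaip1, Tradd and Tnfrsf10b, of the gene end with H3K4me3), orange cells a peak near a gene end and no start, grey cells neither, and circles mark another peak in the gene body or within 20 kb. The 1-allele and Arid1a-floxed columns hold the fewest blue cells, with 10, 16 and 14 members.

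Gene ends miss some promoters, because a RefSeq start can lie inside the gene's outer bounds. RefSeq starts were at hand for 35 of the 39 members and for 17457 of the 21848 other genes. For the rest, counts by starts used the gene end with an H3K4me3 peak in any of these libraries. Both ends were used where neither or each had one. Counted in this way, 32 and 31 members were called in wild type, 36 and 33 in NICD, 10 and 16 in the 1-allele group, and 30 and 31 in the 2-allele group. The shares of other genes were 44.7% and 42.6%, 54.2% and 48.8%, 17.2% and 27.1%, and 44.3% and 42.7%. By starts, 9 members (23.1% against 14.4% of other genes) were called in all 8 libraries. Bcl2l14 and Mcl1 joined that set and Casp8 left it, since the peaks of Casp8 lie at the upstream end of the gene and its tabulated start is 7269 bp further in.

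Among the pro-survival proteins, Mcl1 (chr3:95656944-95663179) was at 0 of 8 libraries by gene ends and at 8 of 8 by its start, which lies 1777 bp inside. Its peak just downstream of the start stood at percentiles 94.8 and 94.9 in wild type, 96.1 and 96.6 in NICD, 84.8 and 86.3 in the 1-allele group and 95 and 89.9 in the 2-allele group. H3K4me3 was called there in all 3 libraries, which held for no other pro-survival gene. Bcl2 (chr1:106538176-106714290) had start peaks at percentiles 62 and 69 in wild type, 90.1 and 82.2 in NICD, 42.6 and 66.4 in the 1-allele and 80.7 and 82.6 in the 2-allele libraries. Both NICD values were above both wild-type values, in longer lists. Bcl2l1 (Bcl-xL) and Bcl2l2 (Bcl-w) were called at their starts in 7 libraries, all but 1-allele replicate 1. By starts, all 4 pro-survival genes were called in every library of wild type, NICD and 2-allele glands, and 2 and 4 of them in the 1-allele libraries. Other genes were called by starts at 44.7% and 42.6% in wild type, 54.2% and 48.8% in NICD, 17.2% and 27.1% in the 1-allele and 44.3% and 42.7% in the 2-allele libraries.

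Of the multidomain killers, Bax was the only member that separated NICD from wild type at its start. Its promoter region is printed above, and the gene (chr7:45461695-45466903) is read on the minus strand. In NICD the H3K27ac peak just downstream of the start spanned chr7:45466240-45466828 in replicate 1 and chr7:45466426-45466748 in replicate 2, with the authors' fold enrichments of 6.4 and 4.86 and summit pileups of 31 and 13 tags. Their percentiles were 69.8 and 28.4. A start peak was also called in both 2-allele libraries, at percentiles 26.5 and 1.31, and in neither wild-type nor 1-allele library. The 2-allele replicate 2 value is near the bottom of its list.

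Wild type did have H3K27ac beside Bax, at the far end of the gene. The nearest peak lay 336 and 424 bp beyond that end in the wild-type libraries, next to Ftl1, which encodes ferritin light chain. For this reason the count by gene ends put Bax among genes called in wild type. H3K4me3 was called at the Bax start in all 3 libraries, with the authors' folds of 6.55 in wild type, 12.3 in NICD and 4.77 in Arid1a-floxed glands, and the NICD peak was 1233 bp wide. The wild-type start thus had the promoter mark and no called acetylation. The start-based pattern occurred in 1 of 39 members against 3.80% of other genes, and the opposite pattern in 0 against 0.128%, so a single gene is close to the background share. Bax kept this pattern whichever replicate of either group was left out, with 1 to 4 members in all (2.56% to 10.3%), against 4.04% to 7.49% of other genes. It left the pattern when lists were cut to 5165 or 14373 peaks. There 2 members (5.13%) held it each time, Bcl2 and Birc5 or Bid and Fas, against 1.87% and 2.37% of other genes. These settings were added after seeing the data.

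**Figure D4:**
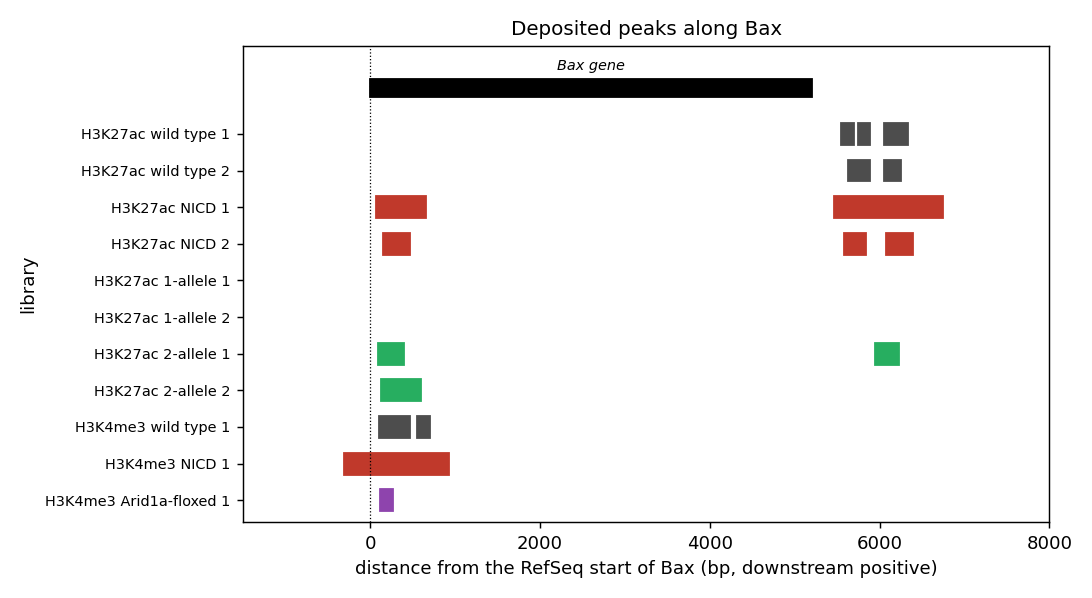
Deposited peaks along Bax in the 11 libraries (rows), drawn by distance from its RefSeq start (x axis, bp, positive in the direction of transcription), with the gene as a black bar and colours for the groups. H3K27ac bars next to the start appear in the NICD and 2-allele rows and not in the wild-type or 1-allele rows, while all 3 H3K4me3 rows have one.

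The other killers differed from Bax. Bak1 was called in 7 H3K27ac libraries, all but 1-allele replicate 1, and its percentiles were 86 and 69 in wild type, 90.5 and 66.3 in NICD, 25.3 in 1-allele replicate 2 and 58 and 48.9 in the 2-allele libraries. Bok, a relative of Bax, was called in wild type (34.8 and 49.5), NICD (89.1 and 50.9) and the 2-allele group (20.9 and 18.7). It was in neither 1-allele library, and it lacked H3K4me3 in wild type while having it in NICD and in Arid1a-floxed glands.

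The BH3-only and related genes included several with few or no calls. By gene ends, 5 and 4 of these 9 were called in wild type, 6 and 5 in NICD, 1 and 2 in the 1-allele group and 3 and 4 in the 2-allele group. The shares of other genes were 43.0% and 40.8%, 53.0% and 47.2%, 16.1% and 25.8%, and 42.5% and 41.1% in that order. Bik (chr15:83526790-83544635) had weak peaks in wild type (percentiles 0.172 and 49.7) and NICD (50.7 and 28.5) and none in the 4 Arid1a-floxed H3K27ac libraries. Bid, which Casp8 cleaves to link the death receptor and mitochondrial routes, was called in wild-type replicate 1 (23), both NICD libraries (71.7 and 58) and 2-allele replicate 2 (34.1). Bcl2l11 was called in wild type (63.5 and 23), NICD (65.7 and 21.5) and the 2-allele group (35.3 and 20) and not in the 1-allele group by gene ends, though 1-allele replicate 2 had a peak at an internal start. The peaks of Bcl2l11 also lay at an end of Acoxl. Bad, some of whose peaks also lay at Gpr137, was called by gene ends in all but 1-allele replicate 1. The 1-allele replicate 2 peak of Bad lay at the far end, centred 8831 bp downstream of the nearest start. By starts, Bad was called in neither 1-allele library. Bmf was called in NICD replicate 1 alone.

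By gene ends, 5 members (12.8%, against 45.6% of other genes) had no H3K27ac call in any library: Bbc3, Bcl2l1, Bcl2l14, Hrk and Mcl1. Only Hrk of these 5 had H3K4me3 at an end (2.56%, against 10.3% of other genes with H3K4me3 and no H3K27ac). By starts, Bbc3, Casp8 and Hrk had no H3K27ac call (7.69% against 44.4%), and Bbc3 and Hrk had H3K4me3 (against 10.4% of other genes). For Hrk (chr5:118169764-118189478) the single call was H3K4me3 in NICD, with the authors' fold of 6.94, at the promoter printed above. Bbc3 (PUMA, chr7:16308398-16318334) was different, since its strongest H3K27ac peak lay inside the gene. Further peaks lay upstream of its start in every wild-type, NICD and 2-allele library, and the 1-allele lists had none there. A peak at chr7:16313452-16314049 in NICD replicate 1, with overlapping peaks in all 8 libraries, stood at percentiles 94.7 and 97.9 in wild type, 98.9 and 98.7 in NICD, 96.6 and 72.2 in the 1-allele group and 98.7 and 93.4 in the 2-allele group. The middle of that peak lay 3319 bp downstream of the nearest RefSeq start. It was among the strongest peaks of 7 of the 8 lists, with 1-allele replicate 2 lower. The Bbc3 start itself had H3K4me3 in wild type and NICD, with the authors' folds of 4.04 and 3.85. Bcl2l14, a less studied relative, was called by its internal start in all 8 libraries and had none at a gene end.

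Caspase and apoptosome genes ranged from those called in all 8 H3K27ac libraries, Apaf1 and Casp8, to Casp1 with 1. Casp8, the initiator of the death receptor route (chr1:58795233-58847503), stood at percentiles 88.5 and 84 in wild type, 95.2 and 93.4 in NICD, 54.4 and 66 in the 1-allele and 92.2 and 89.7 in the 2-allele libraries. Cycs, which encodes cytochrome c, was called in 7 libraries, with 96.9 and 86.9 in wild type, 90.8 and 64.1 in NICD, 22.3 in 1-allele replicate 2 and 77.3 and 26.5 in the 2-allele group. Casp9, the initiator that the apoptosome starts, was called at 14.3 and 48.7 in wild type, 66.9 and 42 in NICD and 10.4 and 35.3 in the 2-allele group. Like Casp9, Casp2 (39 and 21.5, 85.3 and 72.2, 60.2 and 28.8) and the effector Casp6 (73 and 35, 40.8 and 15.9, 32.7 and 19.9) were called in those 3 groups and in neither 1-allele library. The peaks of Casp2 also lay at Tmem139. Casp1, which acts in inflammation more than in apoptosis, was called in NICD replicate 1 alone (8.73), and H3K4me3 was called there in NICD. The nearest wild-type H3K27ac peak lay 861050 bp away. Of the 10 blood markers, Ptprc had a start peak in both NICD libraries and Spi1 in NICD replicate 2, and the other 8 were at 0 in all 8 H3K27ac lists. Their part in the Casp1 call was not tested.

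The inhibitors of apoptosis included 2 genes of the core. Birc2 (cIAP1, chr9:7818226-7837131) stood at 85.6 and 87.5 in wild type, 91.3 and 75 in NICD, 56.4 and 84.3 in the 1-allele and 71.8 and 72 in the 2-allele libraries. Birc6, a very large inhibitor that also conjugates ubiquitin, stood at 58 and 89.8, 95.4 and 76.6, 51.4 and 61, and 82.1 and 81.3. Birc3 (cIAP2), the neighbour of Birc2, was called in all but 1-allele replicate 1. Birc5 (survivin, which also serves in cell division, chr11:117849237-117855743) had percentiles of 72.3 and 67.9 in wild type, 88.8 and 96.9 in NICD and 44.1 and 74.2 in the 2-allele group. Neither 1-allele library had a Birc5 peak, and the nearest lay 38904 and 38739 bp away. The NICD values were the highest for Birc5, in the longest lists, and H3K4me3 was called there in all 3 libraries.

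Diablo (SMAC, chr5:123511330-123524164), which is released from mitochondria and antagonises the inhibitors, had peaks at 68.6 and 75 in wild type and 75.7 and 58.4 in NICD. The authors' folds were 6.72 and 7.44 in wild type and 9.47 and 7.29 in NICD. No peak was called in the 4 Arid1a-floxed H3K27ac libraries, where the nearest lay 48331 to 159739 bp away. H3K4me3 was called at Diablo in all 3 libraries, that of the Arid1a-floxed glands being weak (percentile 2.83). Xiap, the inhibitor that binds caspases directly, was called by its start, 8223 bp inside the gene, in wild type, NICD and the 2-allele group and in neither 1-allele library. By gene ends it was called in NICD replicate 1 alone.

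Of the 8 death receptor genes, 7 and 7 were called by gene ends in wild type, 8 and 7 in NICD, 3 and 3 (37.5% each) in the 1-allele and 8 and 7 in the 2-allele libraries. All 39 members were called at 23.1% and 35.9% in the 1-allele libraries and at 69.2% to 87.2% in the others. Other genes were called at 43.0% and 40.8% in wild type and at 53.0% and 47.2% in NICD. They were called at 16.1% and 25.8% in the 1-allele and at 42.5% and 41.1% in the 2-allele libraries. Fadd, the adaptor that recruits Casp8, had percentiles of 47.5 and 74.8 in wild type, 88.8 and 77.6 in NICD and 61.8 and 79.8 in the 2-allele group. Tnfrsf1a, the main TNF receptor, stood at 61.7 and 59.2, 93.2 and 47.5, and 82.6 and 68.6, and its adaptor Tradd at 48 and 61.4, 81.6 and 67.6, and 46.5 and 44.3. None of these 3 genes was called in a 1-allele library. The peaks of Tradd also lay at Fbxl8. For Tnfrsf1a, weak wild-type peaks at the far end (percentiles 3 and 9.74) lay at Plekhg6, and its start peaks lay at no other gene. Fas was called in all but 1-allele replicate 1, and the TRAIL receptor Tnfrsf10b in all but 1-allele replicate 2. Ripk3, the kinase of necroptosis, was called in NICD replicate 1 (47.5) and 2-allele replicate 1 (21.4), and its H3K4me3 was called in NICD (fold 13.8 by the authors) and in Arid1a-floxed glands (5.45). Endog, a mitochondrial nuclease, stood at 76.5 and 88.2 in wild type, 96.6 and 80.3 in NICD and 89 and 90.8 in the 2-allele group. Aifm1 stood at 22.1 and 30.4, 56.5 and 31.5, and 15.7 in 2-allele replicate 2. Neither Endog nor Aifm1 was called in the 1-allele libraries, and peaks of Aifm1 also lay at Rab33a.

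The design asks what Notch activation and the dosage of Arid1a do, and the groups were compared by counting genes called in both libraries of one group and in neither of the other. The 3 comparisons with NICD share the NICD libraries. For NICD against wild type, 0 members by gene ends had a peak in each NICD library and in neither wild-type list, against 3.84% of other genes, and 0 had the opposite pattern, against 0.114%. Of 45 other genes of the pathway, 4 (8.89%) had the first pattern: Casp4, Dffa, Parp1 and Ppif. Without NICD replicate 2, the member count became 4, namely Bmf, Casp1, Ripk3 and Xiap, and without wild-type replicate 1 it became 1, Bid. With every list cut to its strongest 5165 peaks it was 2, Bcl2 and Birc5, with cuts at 14373 peaks it was 2, Bid and Fas, and among peaks with a −log10 q of at least 10 it was 4, Bcl2, Birc5, Casp2 and Tradd. Other genes had the pattern at 7.87% and 7.63% without those replicates, at 1.89% and 2.38% in the cut lists and at 9.42% by −log10 q, beside which 2 and 4 members are 5.13% and 10.3%.

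For NICD against the 1-allele group, 15 members (38.5%) were called in both NICD libraries and in neither 1-allele library, against 18.8% of other genes, and 0 had the opposite pattern, against 0.00915%. They were Bax and Bok, Bid, Bik and Bcl2l11, Casp2, Casp6 and Casp9, Birc5 and Diablo, Fadd, Tnfrsf1a and Tradd, and Aifm1 and Endog. Of the 45 other pathway genes, 18 (40%) had this pattern. By starts the members numbered 16 (41%), against 19.0% of other genes, with Bad and Xiap added and Bcl2l11 left out, and 0 had the opposite pattern, against 0.00458%.

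List length moved this count most. With every list cut to its strongest 5165 peaks, 2 members kept the pattern, Birc5 and Endog (5.13%, against 2.38% of other genes), and with the other lists cut to 14373 peaks it was 9 (23.1% against 11.2%). In NICD, the 15 had median percentiles of 75.7 and 50.9 in replicates 1 and 2, the 7 members called in a single 1-allele library 90.1 and 66.3, and the 8 called in both 95.3 and 87.8. The same order held for other genes, with medians of 75 and 56.4, 87.2 and 77.9, and 94.9 and 90.9. Members missing from the 1-allele lists thus had the weaker NICD peaks, as did other genes.

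For NICD against the 2-allele group, 2 members (5.13%), Bik and Diablo, were called in both NICD and in neither 2-allele library, against 3.79% of other genes, and 0 had the opposite pattern, against 0.0229%. Of the other pathway genes, 4 had it: Bcap31, Casp4, Pycard and Tnfsf10. Without NICD replicate 2 the member count was 5, with Bmf, Casp1 and Xiap added, and without 2-allele replicate 2 it was 4, with Aifm1 and Bid added. These counts are 12.8% and 10.3% of members, against 8.49% and 5.50% of other genes. By starts the same 2 members had the pattern, against 3.71% of other genes. Lists cut to 5165 peaks gave 1, Birc3, and lists cut to 14373 peaks gave 1, Diablo, against 1.18% and 0.774% of other genes. The members' share is near that of other genes.

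For the 2-allele against the 1-allele group, 11 members (28.2%) were called in both 2-allele and in neither 1-allele library, against 12.0% of other genes, and 0 had the opposite pattern, against 0.0412%. They were Bax, Bcl2l11, Birc5, Bok, Casp2, Casp6, Casp9, Endog, Fadd, Tnfrsf1a and Tradd. All 11 were also called in both wild-type libraries and both NICD libraries by gene ends. Of the other pathway genes, 11 (24.4%) had the pattern. By starts it was 12 members (30.8%), against 12.2% of other genes, and 0 had the opposite pattern, against 0.0366%. Without 1-allele replicate 2 the member count was 17, against 23.1% of other genes, and with lists cut to 5165 peaks it was 3, Bad, Endog and Tnfrsf1a, against 2.81%. The 2-allele lists were made in an unstated way, so a difference in calling and a difference in Arid1a alleles cannot be told apart.

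Distal peaks lay near 22 and 18 members in wild type, 29 and 24 in NICD, 7 and 9 in the 1-allele group and 15 and 15 in the 2-allele group. The share of other genes was 28.5% and 26.3%, 47.3% and 33.8%, 7.74% and 9.43%, and 20.2% and 18.5%. Members had 41 and 32 such peaks in wild type, 89 and 50 in NICD, 9 and 11 in the 1-allele and 25 and 22 in the 2-allele libraries. The group order is the same as at promoters, with NICD highest and 1-allele lowest, and the 2-allele group lies further below wild type here than at promoters. Some of these peaks are at internal starts, which holds for Mcl1, Bcl2l1, Bcl2l11, Bcl2l14 and Xiap.

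Over both NICD libraries, Mcl1 had the most distal peaks, 7 and 7 in NICD, 4 and 2 in wild type, 1 and 1 in the 1-allele and 2 and 1 in the 2-allele group. In the 1-allele group and in 2-allele replicate 2 the single peak was the one at the start. Upstream peaks at chr3:95650234-95650666 and chr3:95650869-95651247 in NICD replicate 1 had counterparts in NICD replicate 2 and in no other H3K27ac list. Tnfrsf1a followed with 8 and 4 in NICD, 3 and 3 in wild type, 0 and 1 in the 1-allele and 1 and 1 in the 2-allele group. Bcl2l1 had 7 and 3 in NICD, 3 and 2 in wild type, 1 and 1 in the 1-allele and 2 and 1 in the 2-allele group. NICD replicate 1, the longest list, held the most for Tnfrsf1a and Bcl2l1, and NICD replicate 2 was at or 1 above the highest wild-type value.

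Bcl2, Cflar, Bcl2l14 and Pmaip1 tied for the next place with 8 peaks each over the NICD libraries. For Bcl2 they were 7 and 1 in NICD, 1 and 2 in wild type and 0 in every 1-allele and 2-allele library. For Cflar they were 6 and 2, 1 and 2, 0 and 0, and 2 and 2 in the order NICD, wild type, 1-allele and 2-allele, with a peak centred 1556 to 2043 bp from the start in all but the 1-allele lists. Bak1, Bbc3, Bcl2l1, Bcl2l14 and Mcl1 had a distal peak in all 8 libraries (12.8%, against 4.08% of other genes). Apaf1, Bid, Birc3, Birc6, Casp1, Diablo, Endog, Hrk, Ripk1 and Tradd had none in any (25.6%, against 47.7%). The core promoter genes Apaf1, Birc6 and Ripk1 are in that last set, so strong promoter peaks and distal peaks did not always go together.

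Counted in the same way as promoters, distal peaks separated NICD from wild type at 3 members (7.69%), Bax, Casp2 and Fadd, against 7.02% of other genes, and 0 had the opposite pattern, against 0.494%. For Bax the peak lay upstream at chr7:45475162-45475382 in NICD replicate 1 and chr7:45475165-45475436 in replicate 2, with the authors' folds of 4.56 and 4.85. Without NICD replicate 2 the count was 7 (17.9%), without wild-type replicate 1 it was 6 (15.4%), and with lists cut to 5165 or 14373 peaks it was 0. Other genes had the pattern at 16.9% and 10.9% without those replicates and at 0.572% and 1.65% in the cut lists. NICD against 1-allele gave 13 members (33.3%), against 21.3% of other genes, and 0 opposite, against 0.101%: Aifm1, Bad, Bax, Bcl2, Bik, Birc5, Bmf, Bok, Casp2, Cflar, Fadd, Fas and Xiap. Cut lists gave 1 and 5 for the lengths of 5165 and 14373, against 0.737% and 6.90% of other genes.

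NICD against 2-allele gave 7 members (17.9%), against 11.3% of other genes, and 0 opposite, against 0.0687%: Aifm1, Bad, Bax, Bcl2, Birc5, Bmf and Fadd. Without NICD replicate 2 the count was 11 (28.2%), against 24.6% of other genes. Cut lists gave 1 and 2 (2.56% and 5.13%), against 0.622% and 1.80% of other genes. The 2-allele against the 1-allele group gave 3 members (7.69%), Bok, Cflar and Xiap, against 6.19% of other genes, and 0 opposite, against 0.375%. Without 1-allele replicate 2 or without 2-allele replicate 1 it was 6 (15.4%), against 9.33% and 9.12% of other genes. The peak of Xiap is the one at its internal start. Shares of members thus lay near the background for NICD against wild type and for 2-allele against 1-allele.

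H3K4me3 was called at the ends of 30 members in wild type, 34 in NICD and 13 in Arid1a-floxed glands, against 47.3%, 63.5% and 19.5% of other genes. By starts the counts were 33, 38 and 14, against 49.8%, 65.2% and 20.7%. These are single libraries with no replicate check, and their lists held 17558, 39420 and 5175 peaks. Counts by starts are partly tied to this mark, since genes without a RefSeq start were read at the end that had H3K4me3. Only Casp8 lacked a start peak in NICD, and its upstream end had one. In Arid1a-floxed glands, Bax, Bak1 and Bok all had H3K4me3 at the start, as did 1 of 4 pro-survival genes, Mcl1, and 1 of 9 BH3-only and related genes, Pmaip1. Among peaks with a −log10 q of at least 10, the counts by gene ends were 10, 33 and 1 (25.6%, 84.6% and 2.56%), against 20.2%, 59.2% and 0.339% of other genes.

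Both marks were mostly found together. Of the 30 members with H3K4me3 in wild type, 28 (93.3%) had H3K27ac in both wild-type libraries, against 76.8% of other genes with H3K4me3. In NICD it was 30 of 34 (88.2%), against 73.3%. The members with H3K4me3 and H3K27ac in neither library were Bmf in wild type and Hrk in NICD by gene ends, and Bax, Bbc3 and Bmf in wild type and Bbc3 and Hrk in NICD by starts. Bok was called for H3K27ac in both wild-type libraries without H3K4me3 there, and so was Xiap by starts. Middle points of the members' start peaks lay downstream of the start in 67.4% to 100% of cases over the 8 H3K27ac libraries, against 64.4% to 75.7% for other genes, and the 100% rests on 8 peaks in 1-allele replicate 1. Their medians lay 208 to 262 bp downstream, and at 179 to 220 bp for other genes.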

How the data were processed

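Peak lists of 11 ChIP-seq libraries were used. Per the submitters' processing notes, the authors aligned reads with Bowtie2 to GRCm38 (mm10) and called peaks with MACS2. For 9 of the lists, the authors ran MACS 2.0.10.20131216 on single libraries without a control, per the file headers, with a q-value threshold of 0.05 and a genome size set for human. Per the file headers each peak has a pileup signal at its summit, a −log10 q-value, a −log10 p-value, and a fold enrichment, all the authors' and compared only within a list. The deposited 2-allele lists hold positions only, taken as given. The labels' protocols name an antibody for H3K27ac, with that for H3K4me3 not given in the sources used here.

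Peaks on autosomes and sex chromosomes were assigned to genes by an overlap of at least 1 bp (Python 3.11.15, pandas 2.3.3, NumPy 2.4.6), in code tested on simulated data. Gene bounds came from RefSeq GRCm38.p6, with starts for 35 of 39 members. Genes without a RefSeq start, members and others, were read by starts at the end with H3K4me3 in any library, or at both ends. The percentile ranks a gene's strongest peak by −log10 p, or by file order in the 2-allele lists. Named were members that separate groups, members called in all or no H3K27ac libraries, members with H3K4me3 alone, and those with the most distal peaks. Alternatives were a −log10 q of at least 10, equal list lengths, midpoint overlap, windows of 2.5 kb and 50 kb, starts, own ends, and each replicate left out. Lists cut to equal length and replicates left out were also run for counts by starts, added after seeing the data. The members, the 45 other pathway genes and the marker lists were chosen with earlier results of these data known. The mark may be present where no peak was called. Intervals for depth were not computed, since the lists hold no read counts per gene.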

Additional observations from a re-analysis of the deposited data

How the results depend on the processing

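Of 56 alternative values of the member counts, 36 were within 1.5 times the reported count and 20 were not. The opposite patterns, 0 members each as reported, gave 1 member in cut lists of 14373 peaks for wild type and for 2-allele over NICD at promoters (Casp6), and in lists of 5165 peaks for wild type over NICD (Pmaip1) and 1-allele over 2-allele (Bcl2l1) at distal peaks. The share of other genes was not computed for opposite patterns in cut lists, so nothing about these members is read from them. For NICD against wild type at promoters (0 members) the count was 4 with a −log10 q of at least 10, 2 and 2 with lists cut to 5165 and 14373 peaks, 1 in a 2.5 kb window, 1 by starts, and 0 to 4 with a replicate left out. The shares of other genes were 9.42%, 1.89% and 2.38%, 3.99%, 3.80%, and 4.17% to 7.87% in the same order. At distal peaks (3) the cut lists gave 0 and 0, against 0.572% and 1.65% of other genes, and leaving out a replicate 3 to 7, against 8.05% to 16.9%. For NICD against 1-allele, the cut lists gave 2 and 9 in place of 15 at promoters and 1 and 5 in place of 13 at distal peaks, and leaving out a replicate 15 to 21 and 13 to 18. Other genes had it at 2.38% and 11.2%, and 0.737% and 6.90%, in the cut lists. With a replicate left out they had it at 19.2% to 30.8% and 22.7% to 35.8%. For NICD against 2-allele, the cut lists gave 1 and 1 in place of 2, and 1 and 2 in place of 7, with 2 to 5 and 7 to 11 when a replicate was left out. The shares of other genes were 1.18% and 0.774%, and 0.622% and 1.80%, in the cut lists. They were 4.14% to 8.49% and 12.7% to 24.6% with a replicate left out. For 2-allele against 1-allele, lists cut to 5165 peaks gave 3 in place of 11 and 1 in place of 3, own gene ends gave 7 distal members, and leaving out a replicate gave 12 to 17 and 4 to 6. Other genes stood at 2.81% and 0.490%, at 10.9%, and at 13.9% to 23.1% and 7.68% to 10.3% in the same order. H3K4me3 with a −log10 q of at least 10 left 10 of 30 members in wild type and 1 of 13 in Arid1a-floxed glands. Other genes went from 47.3% to 20.2% and from 19.5% to 0.339%. The number of H3K27ac libraries calling a member moved for 26 of 39 members in lists of 5165 peaks, 7 in lists of 14373, 5 by starts, 3 in the 2.5 kb window and 0 by midpoint. No paired analysis was possible because these results are counts with no test and the labels tie replicate numbers to no shared animal or day. A −log10 q of at least 10 was not run for comparisons with 2-allele lists, which hold no q.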
